A study of Mus musculus with 4 samples.

Results

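Genes of the choroid plexus epithelium were followed in neural cultures from a mouse model of Alzheimer's disease. The set held Ttr, Kl, Aqp1, Folr1, Enpp2, Clic6, Kcne2, Otx2 and Rarres2. Its members were all non-control array probes whose RefSeq accession belongs to 1 of these 9 genes, which gave 9 of the 20887 genes matched by name and 10 of the 55681 probes on the array, with 2 probes for Folr1. Neural progenitor cells came from the day 13 telencephalon of C57BL/6 embryos, either wild-type (WT) or carrying the APPswe/PS1dE9 transgenes of familial Alzheimer's disease. Both genotypes were grown as neurospheres in EGF and FGF2 for 5 days and then differentiated on poly-L-lysine and laminin for 7 days without these factors. Each of 4 two-colour Agilent arrays carried RNA of 1 APPswe/PS1dE9 and 1 WT culture, and the dyes were swapped between them. APPswe/PS1dE9 RNA carried Cy3 on replicates 1 and 2, whereas it carried Cy5 on replicates 3 and 4. The promoter of the transgenes, the sex of the embryos and any pooling of them are not given in the sources used here. The design names 4 biological replicates per genotype but no litters, and the p-values below therefore cover only the spread of these 4 arrays, part of which may be technical.

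The choroid plexus is a folded epithelium in the brain ventricles that secretes cerebrospinal fluid and forms the barrier between blood and that fluid. It arises at the dorsal midline of the neural tube, beside the cortical hem in the telencephalon, and shares its ventricular surface with the multiciliated ependyma. Its cells secrete carrier proteins, take up vitamins through receptors, and move ions and water through apical channels.

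A probe was kept for testing if the scanner software marked its spot as well above background on 3 or more of the 4 arrays in cultures of the same genotype. This left 26898 probes and 9 of the 10 member probes, covering 8 genes. The Kl probe was the one that did not pass. Values are log2 ratios of APPswe/PS1dE9 over WT, and fitted ratios are given ± SE over 4 arrays with limma p-values adjusted by Benjamini-Hochberg over all kept probes. Levels are normalized intensities on a linear scale, which can be compared between cultures for 1 probe but not between probes. Where the levels of a gene list are summed, its brightest probes weigh most, so a sum can move less or more than the list median. All arrays lay on 1 slide, and detection by that mark ranged from 47.5% to 59.6% of spots per culture.

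Of the 9 kept member probes, 5 were higher in APPswe/PS1dE9 cultures, none was lower and 4 did not pass the threshold of 0.05. Over all kept probes 6.89% were higher and 1.9% were lower, 8.79% in all. Without regard to adjustment, 6 members had limma p below 0.05 as higher and 0 as lower. For this and later counts at unadjusted p, the share over all kept probes is not given, so they cannot be set against it. The 5 that rose were Rarres2, Ttr, Clic6, the brighter probe of Folr1, and Aqp1, while Kcne2, Otx2, Enpp2 and the dimmer Folr1 probe did not pass. The median of the kept member probes was 0.51, beside 0.01 over all kept probes. In 6 of the 9 the ratio was above 0 on all 4 arrays, as it was in 15.7% of all kept probes. This filter favours probes that are high in 1 genotype, so these counts describe the kept probes and not all members. The member median was 0.32 without replicate 2. The count of 5 fell to 1 without replicate 3 and to 2 without replicate 4. It was also 2 with Feature Extraction's processed signals, in the authors' value table, and with replicates 2 and 4 alone. Those arrays, called the same-sex arrays below, had Xist signal from both genotypes and Eif2s3y signal from neither, and this alternative was chosen after seeing the data. Its fit had no dye term as well, since 2 arrays cannot hold one. Median centring in place of loess kept the count at 5, but with Kcne2 (adjusted p = 0.0068) in place of Aqp1 (adjusted p = 0.1005). The counts of 5 without replicate 1 and without replicate 2 held the same exchange. Median centring also moved the balance over all probes from 1852 higher and 512 lower to 1559 higher and 1675 lower.

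**Figure D1:**
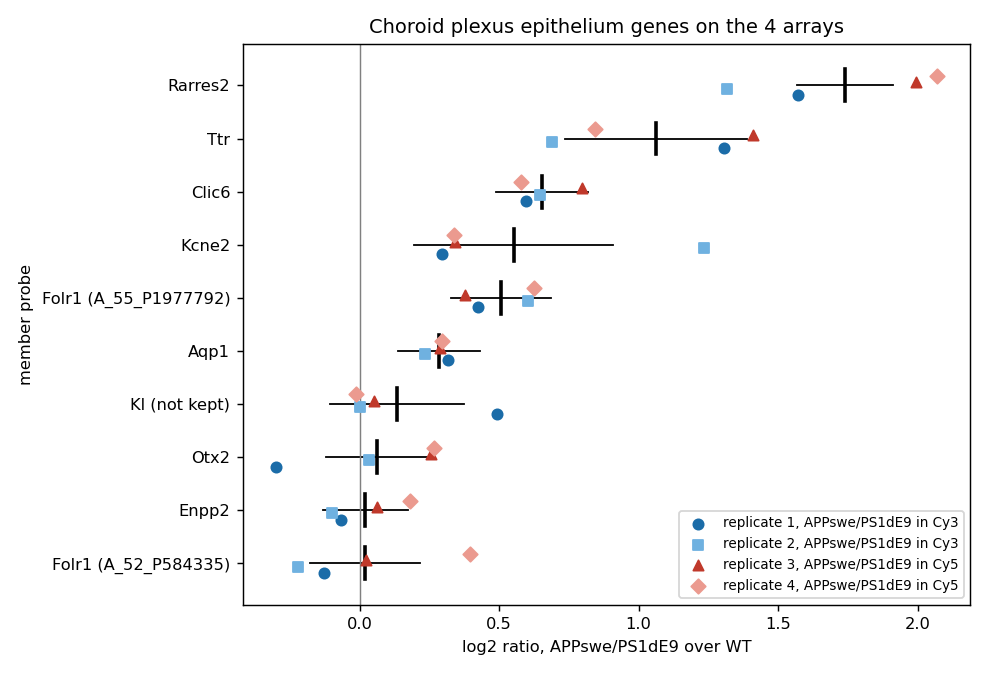
Log2 ratio of APPswe/PS1dE9 over WT (horizontal axis) for each of the 10 member probes (vertical axis), with 1 symbol for each array, the fitted ratio as a vertical bar and its 95% confidence interval as a line. Rarres2 and Ttr lie farthest to the right at 1.74 and 1.06, while the points of Otx2, Enpp2 and the dimmer Folr1 probe fall on both sides of 0.

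Among the secreted proteins, Rarres2 had the highest ratio of the set. It encodes chemerin, a chemoattractant for leukocytes that ependymal and other cells also make. Its level was 1198, 956, 1345 and 1493 in the APPswe/PS1dE9 cultures of replicates 1 to 4. In the WT cultures it was 403, 384, 338 and 355. The lowest APPswe/PS1dE9 culture thus lay far above the highest WT culture. The 4 log2 ratios were 1.57, 1.32, 1.99 and 2.07, and the fit gave 1.74 ± 0.07, or 3.34-fold (adjusted p = 0.000183). It ranked 48 of 26898 kept probes from the highest ratio, and passed under all 13 alternatives tried, with ratios from 1.65 to 1.87. The mean ratio was 1.44 with APPswe/PS1dE9 in Cy3 and 2.03 with it in Cy5. The dye term had an adjusted limma p of 0.214.

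Ttr, the thyroxine and retinol transport protein that choroid plexus cells secrete into the cerebrospinal fluid, was 2.09-fold higher. Its levels were 5318, 3485, 7386 and 6251 in APPswe/PS1dE9 cultures. In WT cultures they were 2151, 2159, 2779 and 3486. The groups met, since the lowest APPswe/PS1dE9 level (replicate 2) was level with the highest WT level (replicate 4), but on each array APPswe/PS1dE9 was the higher. The ratios of 1.31, 0.69, 1.41 and 0.84 spread more than those of the other called members except Rarres2, with an SD of 0.35. The fitted ratio was 1.06 ± 0.13 (adjusted p = 0.00728), at rank 204. Ttr did not pass without replicate 3 (0.92, adjusted p = 0.0884), without replicate 4 (1.20, adjusted p = 0.0666), with the processed signals (1.06, adjusted p = 0.0525) or in the authors' value table (adjusted p = 0.0533). On the same-sex arrays it was at 0.77 (adjusted p = 0.0438).

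Enpp2 encodes autotaxin, a secreted enzyme that makes lysophosphatidic acid and that oligodendrocytes express as well. Its levels of 3862, 3690, 4223 and 3348 in APPswe/PS1dE9 cultures overlapped those of 4043, 3950, 4046 and 2953 in WT cultures. The ratios of -0.07 and -0.10 on replicates 1 and 2 and of 0.06 and 0.18 on replicates 3 and 4 changed sign with the dye orientation. The fitted ratio was 0.02 ± 0.06 (adjusted p = 0.877), with a 95% interval from -0.13 to 0.17. That interval lies below the fitted ratios of Rarres2, Ttr, Clic6, Kcne2, Aqp1 and the brighter Folr1 probe, and these differences were not tested.

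**Figure D2:**
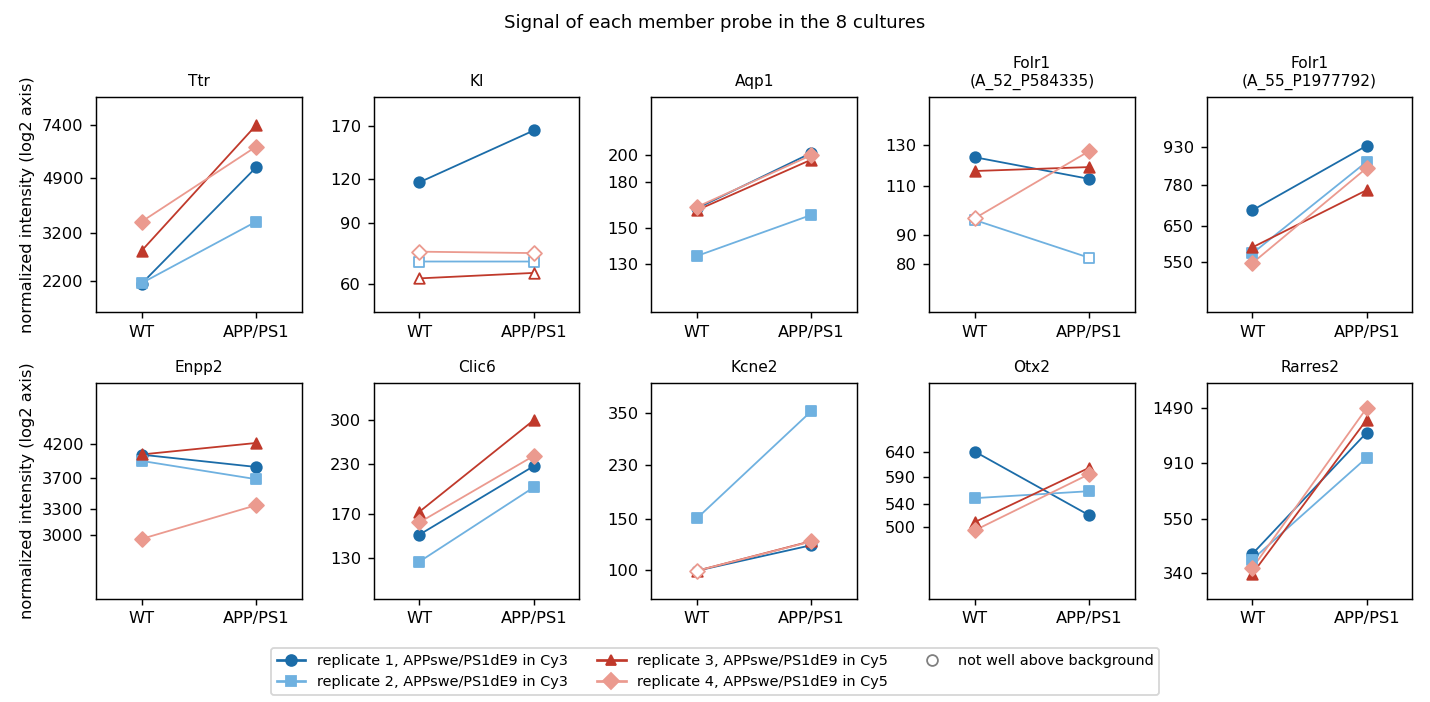
Normalized intensity (vertical axes, log2 scale, a separate scale for each panel) of the 10 member probes in WT and APPswe/PS1dE9 (APP/PS1) cultures, with a line joining the cultures of 1 array and open symbols where the signal was not well above background. Lines slope upwards on all 4 arrays for Ttr, Aqp1, the brighter Folr1 probe, Clic6, Kcne2 and Rarres2. The Kcne2 levels of replicate 2 (354 and 151) lie above those of the other arrays.

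Folr1 encodes folate receptor alpha, which carries folate across the choroid plexus epithelium. Its brighter probe, A_55_P1977792 (NM_001252552), was at 934, 869, 763 and 844 in APPswe/PS1dE9 cultures. The WT cultures lay below at 697, 573, 588 and 548, with no overlap, a separation that 11.7% of all kept probes showed in either direction. The fitted ratio was 0.51 ± 0.07 (1.42-fold, adjusted p = 0.0121). It was not past the threshold without replicate 3 (adjusted p = 0.0693), without replicate 4 (adjusted p = 0.115), with the processed signals (adjusted p = 0.0631), in the authors' value table (adjusted p = 0.0635) or, among same-sex arrays, at an adjusted p of 0.0822. The other probe, A_52_P584335 (NM_008034), was dim, with levels from 82.1 to 127 in APPswe/PS1dE9 and from 95.7 to 124 in WT cultures. It was well above background in 3 APPswe/PS1dE9 and 2 WT cultures and its ratio was 0.02 ± 0.08 (adjusted p = 0.919). The 95% intervals of the 2 probes, 0.33 to 0.69 and -0.18 to 0.22, did not overlap, and the difference between them was not tested.

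Kl, which encodes the FGF23 co-receptor klotho, had a signal well above background on replicate 1 alone, in both cultures. There the level was 166 in APPswe/PS1dE9 and 118 in WT. On the other 3 arrays it lay between 62.4 and 74.5 in both genotypes. Nothing can be said of a genotype difference in Kl from these arrays, and it was left out of the counts above.

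Of the water and ion channel genes, Clic6 and Aqp1 rose and Kcne2 did not pass. Clic6, a member of the chloride intracellular channel family, was at 227, 200, 299 and 241 in APPswe/PS1dE9 cultures and at 150, 128, 172 and 162 in WT cultures, with no overlap. Its ratios of 0.60, 0.65, 0.80 and 0.58 were close to each other on the 4 arrays. The fit gave 0.65 ± 0.07 (1.57-fold, adjusted p = 0.00365), at rank 605. Clic6 passed under 11 of 13 alternatives, and was not called without replicate 3 (0.60, adjusted p = 0.0525) or with replicates 2 and 4 alone (0.61, adjusted p = 0.0842).

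Aqp1, the water channel of the apical membrane, was at 202, 158, 197 and 200 in APPswe/PS1dE9 and at 162, 134, 161 and 163 in WT cultures. The APPswe/PS1dE9 culture of replicate 2 fell within the WT range, although its own WT partner was lower. The ratios of 0.32, 0.23, 0.29 and 0.30 had the smallest SD of the set, 0.03, and gave 0.28 ± 0.06 (1.22-fold, adjusted p = 0.0417). This call was the least stable of the 5. It was lost under 10 of 13 alternatives, among them the omission of any 1 of the 4 replicates (adjusted p = 0.0851, 0.0584, 0.163 and 0.173 without replicates 1, 2, 3 and 4).

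Kcne2, an auxiliary subunit of potassium channels, did not pass at 0.55 ± 0.15 (adjusted p = 0.0753). The ratio was 1.23 on replicate 2 and 0.29, 0.34 and 0.34 on replicates 1, 3 and 4. On replicate 2 the levels were 354 in APPswe/PS1dE9 and 151 in WT, whereas on the other arrays they were 121 to 125 and 99.0. The local background around that spot on replicate 2 read 169 in the APPswe/PS1dE9 channel and 109 in the WT channel, beside medians over all probe spots of 26 and 38. On that array 1.59% of spots had as high a background in the APPswe/PS1dE9 channel and 2.14% in the WT channel. On the other arrays the background of the Kcne2 spot was 26 to 41 and 22 to 40. Kcne2 was well above background in all 4 APPswe/PS1dE9 and in 2 WT cultures. Without replicate 2 the ratio was 0.32 and passed (adjusted p = 0.0489), as it did at 0.42 with median centring (adjusted p = 0.0068). It was 0.79 without replicate 1 (adjusted p = 4.6e-05), where replicate 2 was the only array with APPswe/PS1dE9 in Cy3. The gap of replicate 2 from the other arrays then went into the dye term and not into the SE. That p therefore does not cover the spread that replicate 2 brings. Kcne2 was at 1.04 and did not pass with the processed signals (adjusted p = 0.0832) or in the authors' value table (adjusted p = 0.0841). The part of the high background in the ratio was not tested.

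Otx2, a homeodomain transcription factor that the choroid plexus needs to form, was at 520, 563, 607 and 595 in APPswe/PS1dE9 and at 641, 550, 509 and 495 in WT cultures. The groups overlapped. Its ratios of -0.30 and 0.03 on replicates 1 and 2 and of 0.26 and 0.26 on replicates 3 and 4 gave 0.06 ± 0.08 (adjusted p = 0.662), with a 95% interval from -0.12 to 0.25. The mean ratio was -0.13 with APPswe/PS1dE9 in Cy3 and 0.26 with it in Cy5, and the dye term had an adjusted limma p of 0.325. The sign of the Otx2 ratio turned under median centring (-0.02), with the processed signals (-0.05), in the authors' value table (-0.05) and without replicate 2 (-0.02).

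Promoter windows, from 250 bases before to 50 after a transcription start, were held for 4 member genes (Kl, Aqp1, Otx2 and Kcne2; 8 windows) in RefSeq's GRCm38.p6 annotation. Windows are shown for Aqp1, which rose, for Kcne2, and for the Otx2 start whose window held the OTX2 recognition sequence TAATCC. Capitals mark matches, on either strand, to TAATCC, to the STAT-type sequence TTCNNNGAA, to the GC box GGGCGG or to the TATA sequence TATAAA.
Aqp1, chr6:55336049-55336348, plus strand: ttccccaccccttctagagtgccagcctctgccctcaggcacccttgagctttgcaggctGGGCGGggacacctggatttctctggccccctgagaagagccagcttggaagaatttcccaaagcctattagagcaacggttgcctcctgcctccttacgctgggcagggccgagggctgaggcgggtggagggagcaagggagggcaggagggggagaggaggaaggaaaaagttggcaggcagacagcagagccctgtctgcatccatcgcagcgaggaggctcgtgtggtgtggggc
Kcne2, chr16:92292139-92292438, plus strand: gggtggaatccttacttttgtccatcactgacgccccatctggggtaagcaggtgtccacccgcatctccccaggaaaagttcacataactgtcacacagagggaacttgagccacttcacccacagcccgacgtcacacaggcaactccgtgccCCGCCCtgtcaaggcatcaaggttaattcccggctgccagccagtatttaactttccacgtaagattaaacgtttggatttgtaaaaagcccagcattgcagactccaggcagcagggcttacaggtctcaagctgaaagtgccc
Otx2, chr14:48665060-48665359, minus strand: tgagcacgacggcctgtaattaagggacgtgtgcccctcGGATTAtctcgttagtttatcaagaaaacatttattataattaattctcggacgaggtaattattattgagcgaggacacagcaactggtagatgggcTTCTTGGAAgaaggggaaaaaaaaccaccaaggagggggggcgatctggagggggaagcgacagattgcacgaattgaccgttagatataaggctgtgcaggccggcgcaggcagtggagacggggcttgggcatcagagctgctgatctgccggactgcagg
The Aqp1 and Kcne2 windows each held a GC box, as did 35.7% of the 32851 windows of the annotation. TAATCC, present in 7.06% of all windows, was matched once in the 8 member windows examined, in its reverse complement GGATTA 211 bases before that Otx2 start. The STAT-type sequence, present in 8.3% of all windows, was matched in the same Otx2 window at 113 bases before the start. TATAAA, present in 13.6% of all windows, was matched in another Otx2 window. None of these matches is a measured binding site.

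Kcne2 and Clic6 both lie on chromosome 16, with 5 protein-coding genes between them in that annotation. Of these, Smim11 (0.14 ± 0.07, adjusted p = 0.286) and Rcan1 (0.11 ± 0.07, adjusted p = 0.374) were kept and did not pass. Kcne1, a relative of Kcne2 in the same interval, was not well above background in any culture.

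Across the 8 cultures the members did not vary as 1 block. The log2 levels of Clic6, Aqp1 and Rarres2 had Pearson correlations with Ttr of 0.95, 0.89 and 0.88 over 8 values. Those of the brighter and dimmer Folr1 probes were at 0.62 and 0.32. Otx2, Kcne2 and Enpp2 were at 0.11, 0.02 and -0.11. The Kcne2 figure includes replicate 2, whose spot had the high local background described above. Its log2 levels there were 8.47 and 7.23, beside 6.92 to 6.97 in APPswe/PS1dE9 and 6.63 in WT on the other arrays. The low Kcne2 correlation may therefore rest on that array, which was not tested. The 8 values share 4 arrays, 1 slide and the genotype difference itself, so these figures describe these cultures and carry no p-value. Among all other named genes the 6 whose levels were most like those of Ttr were Lrrc43, Adgrg6, Icosl, Ttll9, Camk2a and Ttll6, with correlations from 0.97 to 0.99. Of these, Lrrc43 (0.66 ± 0.11), Adgrg6 (0.69 ± 0.07), Icosl (0.85 ± 0.08) and Ttll6 (0.34 ± 0.07) were higher in APPswe/PS1dE9 cultures by limma (adjusted p = 0.0203, 0.0032, 0.00217 and 0.0433). Ttll9 (0.36 ± 0.08) and Camk2a (0.27 ± 0.06) did not pass (adjusted p = 0.0509 and 0.056).

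Other genes of the choroid plexus epithelium were examined in a list of 59, of which 57 were on the array under a matched name and 45 had a kept probe. In this list 11 rose, none fell and 34 did not pass, so that 24.4% were higher beside 6.89% of all kept probes. At an unadjusted limma p below 0.05, 20 were higher and 1 was lower. The median ratio was 0.15, beside 0.51 for the kept member probes. The gene 1500015O10Rik, which encodes the secreted peptide precursor Ecrg4, had the highest ratio at 1.47 ± 0.08 (2.77-fold, adjusted p = 0.000387), with 1.49, 1.45, 1.29 and 1.65 on the 4 arrays. Lgals3bp, a secreted glycoprotein also induced by interferons, followed at 1.09 ± 0.07, with a second probe at 2.09. The calmodulin-like gene Calml4 was at 0.90 ± 0.06. The iron oxidase gene Cp (0.84 ± 0.10) and the lipopolysaccharide-binding protein gene Lbp (0.75 ± 0.08) rose with WT well above background in 1 of 4 cultures each. Ratios of dim genes differed with the processing, and which of its steps moved them was not tested. With no background correction Cp was at 1.00, Lbp at 0.93, Calml4 at 1.14 and Slc13a4 at 0.58. With the processed signals Cp was at 1.81, Lbp at 2.07, Calml4 at 1.54 and Slc13a4 at 0.78, and the authors' value table gave 1.80, 2.08, 1.54 and 0.78. The sulfate transporter Slc13a4 (0.48 ± 0.06) and the carbonic anhydrase Car12 (0.82 ± 0.13) rose as well. Those that rose with larger p were the serotonin receptor gene Htr2c (0.46 ± 0.09), a marker of the choroid plexus epithelium, Igfbp2 (0.65 ± 0.14) and Pcolce (0.61 ± 0.14). Their ratios ran from -0.03 to 1.20 on single arrays. The genes of largest p were the cotransporter Slc12a2 (0.002 ± 0.07), Tmem72 (-0.01 ± 0.09) and the collagen gene Col8a1 (0.02 ± 0.14). The count of 11 was 7 with no filter on dim probes, 4 without replicate 3 and 3 without replicate 4. With median centring 14 rose and 1 fell. Where both channels had to be detected on all arrays, 9 of 35 rose and 1 fell.

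Some genes of the mature epithelium had little or no signal, and others were measured in every culture or in most. The tight junction genes Cldn1 and Cgnl1 were not well above background in any culture. Cldn2 was well above it in 2 APPswe/PS1dE9 and 1 WT cultures, Cldn3 in 1 and none, and the bicarbonate transporter Slc4a5 in none and 1. The potassium channel gene Kcnj13 was kept and did not pass (0.15 ± 0.10, adjusted p = 0.405). The junction gene Tjp3 was well above background in all 8 cultures and did not pass (-0.04 ± 0.09, adjusted p = 0.8). These genes were chosen after their values were seen.

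**Figure D3:**
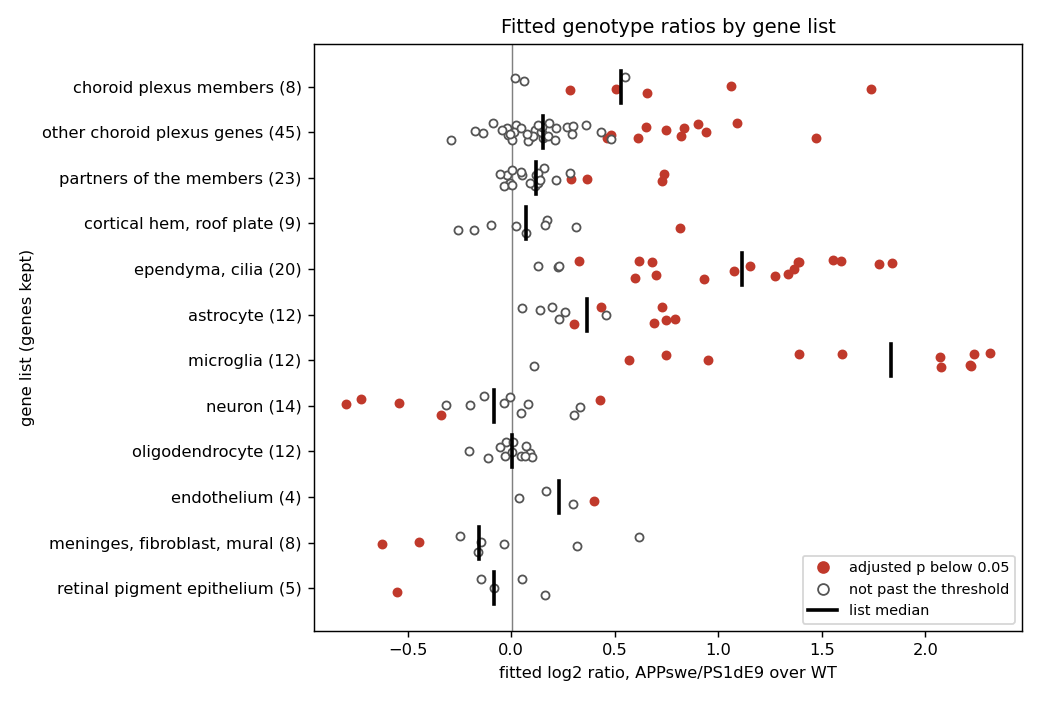
Fitted log2 ratio (horizontal axis) of every kept gene in 12 gene lists (vertical axis, with the number kept in parentheses), filled where the adjusted p was below 0.05, with the list median as a black bar and the median of all kept probes as a grey line. The choroid plexus members have a median of 0.53 over 8 genes, between those of the ependyma list (1.11) and the other choroid plexus genes (0.15).

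Receptors, partners and relatives of the member proteins were examined next. Of 37 such genes on the array, 23 were kept, 4 rose, none fell and 19 did not pass (17.4% higher, 6 higher and 0 lower at an unadjusted limma p below 0.05). The 4 were Clic1 (0.74 ± 0.07), the astrocyte water channel Aqp4 (0.73 ± 0.09), the inositol transporter Slc5a3 (0.36 ± 0.07), whose protein is known to associate with KCNE2 channel complexes, and the FGF receptor gene Fgfr1 (0.29 ± 0.06, with other probes from 0.06 to 0.23). The count was 1 without replicate 3 or replicate 4 and with the processed signals, and 2 with median centring, with no filter and with replicates 2 and 4. None of the chemerin receptor genes Cmklr1, Gpr1 and Ccrl2 was kept, and each was well above background in at most 1 culture of a genotype. Of the retinol carriers and receptors linked to transthyretin, Rbp4 was at 0.12 ± 0.08 (adjusted p = 0.413) and Stra6 was not kept. The lysophosphatidic acid receptor genes Lpar1, Lpar2, Lpar4 and Lpar6 lay between -0.04 and 0.13 and did not pass. The folate transporter genes Slc19a1 (-0.01 ± 0.06) and Slc46a1 (0.16 ± 0.07) did not pass either.

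Markers of the cortical hem and roof plate, the embryonic source of the choroid plexus, were examined as well. Of 12 on the array, 9 were kept and 1 rose, Dkk3 (0.82 ± 0.06, adjusted p = 0.00105), with a list median of 0.07, and Dkk3 was not past the threshold with replicates 2 and 4 alone. Rspo3 (-0.18 ± 0.06, adjusted p = 0.140) and Msx2 (0.16 ± 0.06, adjusted p = 0.188) did not pass. The hem gene Wnt3a and its relatives Wnt2b and Wnt8b were not well above background in any culture.

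Markers of other cell types moved with genotype on the same arrays, and their part in the ratios of the members was not tested. In these bulk cultures, fewer cells of a type and less RNA per cell cannot be told apart. Of 24 ependymal and cilium genes on the array 20 were kept, and 17 rose, with a median of 1.11. Cfap126 (1.78 ± 0.08), Rsph1 (1.55 ± 0.07) and Ccdc153 (1.84 ± 0.09) had the smallest p. The second probes of Cfap126 and Rsph1 were at 0.95 and 0.92. The summed level of the ependymal list was 21100 to 27600 in APPswe/PS1dE9 and 12400 to 15000 in WT cultures, and the ependymal count was 11 without replicate 3 or replicate 4. Of 12 kept microglial markers 11 rose, among them Aif1 (2.22 ± 0.07) and Cx3cr1 (2.31 ± 0.08, at 3.50 with the processed signals), with summed levels of 14500 to 18800 and 9970 to 12200. The other kept Cx3cr1 probes ran from 1.04 to 2.23. In WT cultures Cx3cr1 was well above background in 2, and Tmem119, C1qa, Trem2 and Tyrobp in 1 each, so that these were kept through the APPswe/PS1dE9 channel. Where both channels had to be detected on all arrays, 6 of 7 microglial markers rose. P2ry12, a defining microglial gene, was well above background in 1 APPswe/PS1dE9 and 0 WT cultures. Of 12 astrocyte markers 6 rose, with Gfap at 0.69 ± 0.06 and summed levels of 199000 to 224000 and 134000 to 175000. The other kept Gfap probes ran from 0.42 to 1.16. Aqp4, counted among the partners above, was also 1 of these 6. The astrocyte count was 1 without replicate 3 and 0 without replicate 4, 3 with the processed signals and 2 on the same-sex arrays.

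Neuronal markers, which with the astrocyte markers match the labelled differentiated progenitors, were all kept. Of the 14, 1 rose and 4 fell, and Tubb3 (-0.13 ± 0.08) and Map2 (-0.31 ± 0.09) did not pass, while summed levels were 99900 to 115000 in APPswe/PS1dE9 and 111000 to 128000 in WT cultures. None of the 12 oligodendrocyte markers passed in limma (0 higher and 1 lower at an unadjusted p below 0.05), with Mbp at 0.09 ± 0.07. Their summed levels were 81100 to 95900 and 69500 to 94700. Of 8 kept meningeal, fibroblast and mural genes 2 fell, including Lum (-0.62 ± 0.06). Lum was well above background in 1 APPswe/PS1dE9 and 4 WT cultures and was at -1.74 with the processed signals. Dcn did not pass (-0.25 ± 0.06, adjusted p = 0.0594). Its ratios changed sign with the dye orientation, at 0.11 and 0.09 on replicates 1 and 2 and -0.58 and -0.61 on replicates 3 and 4. That difference is not in the SE, and with no dye term the Dcn SE was 0.14 (limma adjusted p = 0.406). The summed levels of this list were 2230 to 3060 and 2590 to 3490. Among endothelial genes Cldn5 was not well above background in any culture and Pecam1 did not pass (0.17 ± 0.13). Of 4 kept genes 1 was higher, Flt1 (0.40 ± 0.07). It was well above background in 3 APPswe/PS1dE9 and 0 WT cultures, and so was kept through the APPswe/PS1dE9 channel. The summed endothelial levels were 3300 to 3950 and 2720 to 3710. In the retinal pigment epithelium, which shares Otx2 and Ttr with the choroid plexus, Rpe65 was not well above background in any culture and Tyr was at -0.08 ± 0.06. Of the 5 kept genes of that list 1 was lower, with summed levels of 2470 to 2800 and 2430 to 2940. Without replicate 3, and likewise without replicate 4, 0 neuronal markers rose and 2 fell, and 0 genes of the meningeal, endothelial and retinal pigment lists passed in limma. With median centring 0 neuronal markers rose and 7 fell, among them Tubb3 (-0.33, adjusted p = 0.0421) and Map2 (-0.48, adjusted p = 0.00163). Without replicate 1, 3 neuronal markers rose and 5 fell, including Map2 (-0.35, adjusted p = 0.04), and 2 endothelial genes and 1 meningeal gene rose. Without replicate 2, 2 endothelial genes and 1 meningeal gene rose.

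**Figure D4:**
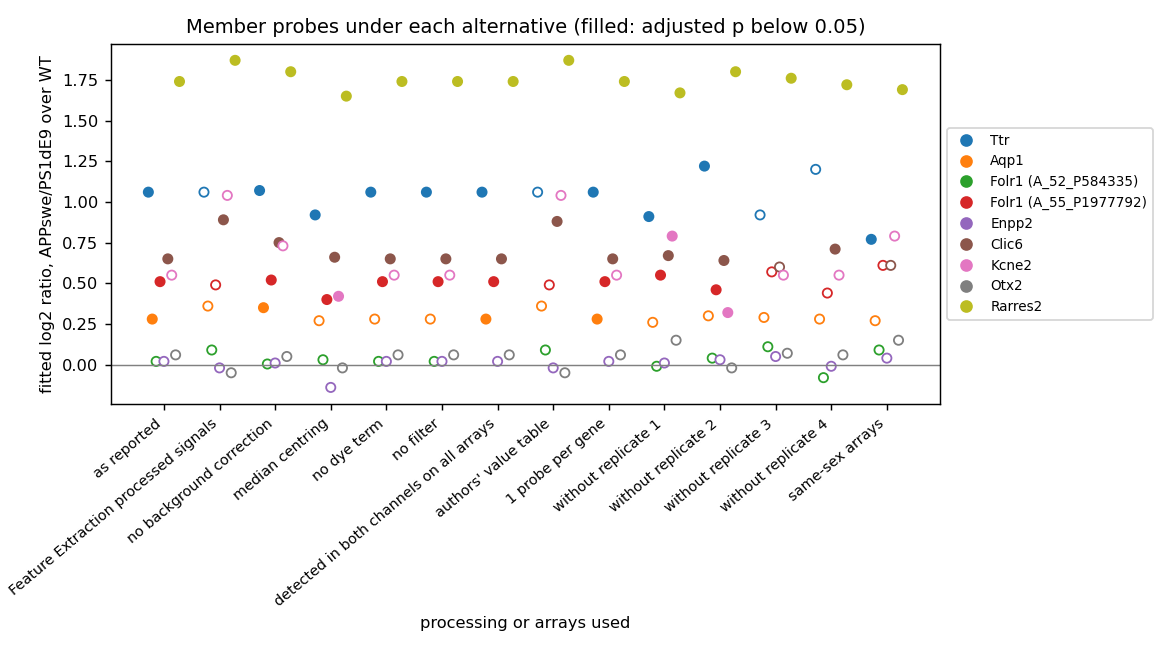
Fitted log2 ratio (vertical axis) of the 9 kept member probes as reported and under each of 13 alternatives (horizontal axis), with filled symbols where the adjusted p was below 0.05. Rarres2 is filled throughout, between 1.65 and 1.87, while Aqp1 is filled in the reported fit and 3 of the alternatives.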

How the data were processed

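The data are 4 two-colour Agilent arrays, each with 1 APPswe/PS1dE9 and 1 WT culture. Per the file headers, they were read with Feature Extraction 11.0.1.1 as 1 slide in 1 scan, with array annotation on mm9. The scanner files the authors deposited give, for either dye, unnormalized median intensity of each spot and its surroundings, and processed intensity after background subtraction and dye normalization. The same deposited files hold a log10 ratio of processed Cy5 over Cy3. The value table the authors deposited covers 29350 spots. Comparison with the scanner files showed that the authors made its log2 values from the processed signals without centring, as APPswe/PS1dE9 over WT (slopes of -1.00 and 1.00), with column medians of -0.0797, -0.155, -0.0373 and -0.0378.

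Spot medians were background-corrected in R 4.3.3 with limma 3.58.1 (normexp, offset 50), and loess was run within arrays with control and outlier spots at weight 0, which were then left out. The offset draws ratios of dim spots towards 0. Levels were further scaled by Aquantile. RefSeq's GRCm38.p6 table, used for names and gene order only, named 27509 probes through their accessions, with 20887 symbols. The model for lmFit and eBayes held genotype, and dye as the intercept. It had 2 residual degrees of freedom, to which the prior added 4.16, and p-values are two-sided. A difference between dye orientations goes into the intercept and not into the SE. A listed gene was represented by its brightest kept probe. The fit was checked on simulated data, where 77% of 200 features given a log2 change of 1 were recovered among 26898. A real change can therefore fail to pass. The number of arrays limits the precision.

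Members, lists and tests were chosen with earlier results of these data known. Genes named beyond the members were the 8 of smallest and 3 of largest p in the choroid plexus list, partners past the threshold, the 3 of smallest p in the hem and ependymal lists, the first 2 genes of each other list, and the 6 genes most like Ttr, without items not reported here. Others were chosen after their values were seen. The 13 alternatives changed the background correction, the normalization, the dye term, the filter, the source of the ratios, the feature and the arrays used.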

Additional observations from a re-analysis of the deposited data

Results flagged for a closer look

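In each member probe the 4 ratios, the 4 APPswe/PS1dE9 levels and the 4 WT levels were searched for a sample far from the others by Dixon's test. For a single group chance gives about 1 in 20, but the groups of 1 probe share its spots and are not independent. Of 30 groups of 4 values, 8 held such a sample. For Kcne2 it was replicate 2 throughout, with a ratio of 1.23 beside 0.29 to 0.34, an APPswe/PS1dE9 log2 level of 8.47 beside 6.92 to 6.97, and a WT log2 level of 7.23 beside 6.63 on the other arrays. For Aqp1 it was replicate 2 as well, at the low end, with log2 levels of 7.30 beside 7.62 to 7.66 in APPswe/PS1dE9 and of 7.07 beside 7.33 to 7.35 in WT, while the Aqp1 ratio of that array was near the others. For Kl it was replicate 1, with a ratio of 0.49 beside -0.01 to 0.05 and an APPswe/PS1dE9 log2 level of 7.37 beside 6.02 to 6.20. For Enpp2 the WT log2 level of replicate 4 was 11.53 beside 11.95 to 11.98.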

How the results depend on the processing

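The reported count of 5 higher member probes became 2 with Feature Extraction's processed signals, in the authors' value table and on the same-sex arrays, and 1 to 5 when single replicates were left out. No alternative gave a lower member probe. The other choroid plexus genes counted 7 with no filter and 3 to 15 when single replicates were left out. The median of the member probes was 0.32 to 0.55 without single replicates, the lowest without replicate 2. Over all probes, higher counts were 759 with the processed signals, 752 in the authors' value table, 1050 with no filter, 457 on the same-sex arrays and 363 to 2837 without single replicates. Lower counts were 226, 216, 98, 7 and 5 to 726 in the same order, and 300 with no background correction, 1675 with median centring and 301 with no dye term. The higher share of calls, 78.3%, was 48.2% with median centring, 91.5% with no filter, 98.5% on the same-sex arrays and 95.8% and 98.6% without replicates 3 and 4. limma's prior degrees of freedom were 4.16 as reported, 72.3 with median centring, 13.2 and 13.0 without replicates 1 and 2, 2.99 without replicate 3 or replicate 4, and 2.20 with the processed signals. The cause of these shifts was not tested.

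Signs turned for genes near 0. With the processed signals and in the authors' value table Enpp2 was at -0.02, Otx2 at -0.05, Col8a1 at -0.17 and Slc12a2 at -0.01. With median centring Enpp2 was at -0.14, Otx2 at -0.02, Slc12a2 at -0.15 and Mbp at -0.04, and with no background correction Slc12a2 was at -0.003. Without single replicates the dimmer Folr1 probe ran from -0.08 to 0.11, Enpp2 from -0.01 to 0.05, Otx2 from -0.02 to 0.15, Col8a1 from -0.17 to 0.21, Tmem72 from -0.12 to 0.11, Slc12a2 from -0.06 to 0.06 and Pecam1 from -0.01 to 0.35. Dim spots limit Kl, Kcne2 and the dimmer Folr1 probe. The reported fit is itself paired by array, since each ratio compares the cultures of 1 replicate number, and no further block could be added.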
